A study of Mus musculus with 8 samples.

Results

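The miR-200 family consists of 5 mature miRNAs of the mouse, listed on the array as mmu-miR-200c, mmu-miR-141, mmu-miR-200b, mmu-miR-429 and mmu-miR-200a, and its probes were taken by name, without the opposite strands that carry an asterisk, from the 1040 mouse probes of a multi-species array. The rule for these 5 of 1040 probes uses names only. All 5 were among the 309 mouse miRNAs that were tested, a set defined as well above background, by the scanner software's own flag, on at least 2 of the 8 arrays. Each was well above background on all 3 mTEC arrays, and miR-429 was so on these 3 arrays only. It was thus tested only through the group in which it was high.

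The arrays compared 3 populations of the mouse thymus, each sorted by flow cytometry from female NOD wildtype mice aged 4 weeks, an inbred strain prone to autoimmune diabetes. No treatment was named, and the stroma of 10 to 12 mice went into each pool. CD45+ cells (EpCAM-, CD45+; n = 3) were blood-lineage cells used as the reference population. Cortical thymic epithelial cells, cTECs, were CD45-, EpCAM+, MHC II+ and Ly51+ (n = 2), and medullary thymic epithelial cells, mTECs, had the same markers but were Ly51- (n = 3). Each array held total RNA of a sorted pool labeled with a single dye, so fewer cells of a type that makes a miRNA and less miRNA per cell cannot be told apart.

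A miRNA guides silencing complexes to messenger RNAs that pair with its seed, a short stretch near its 5′ end. The miR-200 family is a textbook marker of epithelial cells: its members repress transcription factors of the Zeb family, which shut off E-cadherin and other epithelial genes, and those factors in turn repress the miR-200 genes. In the thymus, the epithelium is the stroma that supports the maturation of T cells, with the cortex serving positive selection and the medulla tolerance to self.

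The mature sequences are shown because the members fall into a pair of seed groups that cut across their genomic clusters. In each line, written 5′ to 3′ from RefSeq (GRCm38.p6), the capitals mark the seed, bases 2 to 8.
miR-141: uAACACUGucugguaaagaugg
miR-200a: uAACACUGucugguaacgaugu
miR-200b: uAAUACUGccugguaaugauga
miR-200c: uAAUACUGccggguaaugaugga
miR-429: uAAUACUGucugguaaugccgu

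The seed of miR-141 and miR-200a is carried by 2 of 1679 mouse mature miRNAs in the RefSeq table, these same 2. The seed of miR-200c, miR-200b and miR-429 is carried by 3 of 1679, again these members alone. The seeds differ by C4U, with positions counted from 1 at the 5′ end, miR-141 or miR-200a first. Over the first 22 bases, miR-141 and miR-200a differ at 2 positions (A17C and G22U), and miR-200b and miR-200c also at 2 (U11G and A22G). The remaining pairs differ at 4 or 5 positions, and the nearest of 1158 compared mature miRNAs outside the family differs from any member at 8 or more. Each member's probe holds the full complement of its miRNA, but with 2 differing bases, cross-hybridization between miR-141 and miR-200a or between miR-200b and miR-200c was not tested here.

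The genes lie in 2 clusters, both on the minus strand of GRCm38.p6. Mature miR-429 (chr4:156053916-156053937), miR-200a (chr4:156054911-156054932) and miR-200b (chr4:156055685-156055706) lie within the long noncoding RNA gene Gm13648, which runs on the same strand between the coding genes Ttll10 and 9430015G10Rik. Their hairpins are 908 bases (miR-429 to miR-200a) and 695 bases (miR-200a to miR-200b) apart. Mature miR-141 (chr6:124717917-124717938) and miR-200c (chr6:124718324-124718346) have hairpins 336 bases apart, which overlap no other RefSeq gene and lie between Phb2 and Ptpn6. The positions in the deposited table carry no build name and differ from these, but they give the same 3 spacings.

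For the cluster on chromosome 4, whose members were high on the same arrays, the promoter of the host RNA Gm13648 is shown (RefSeq, GRCm38.p6, chr4:156059753-156060052, minus strand, from 250 bases before to 50 bases after the start). Capitals mark the motif CACCTG, an E-box of the kind that Zeb factors are known to bind.
Gm13648 promoter: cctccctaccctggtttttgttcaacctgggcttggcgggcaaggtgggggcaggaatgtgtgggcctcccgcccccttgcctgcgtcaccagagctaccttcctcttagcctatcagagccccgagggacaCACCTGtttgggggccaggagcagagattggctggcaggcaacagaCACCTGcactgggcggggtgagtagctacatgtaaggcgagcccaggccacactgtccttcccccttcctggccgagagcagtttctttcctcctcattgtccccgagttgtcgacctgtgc
A search for CACCTG on both strands (CAGGTG on the other) found 2 matches, at -118 and -72 from the start. The motif occurs in 20.2% of 32851 mouse promoters of this length, and 2 or more matches in 2.88%. The arrays did not measure binding at these matches.

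Array brightness differed between the populations before any scaling, and the values of the family have to be read against it. The 75th percentile of the processed signal, the scanner's background-subtracted spot brightness in arbitrary units, was 8323 to 11408 for CD45+ cells, 1364 and 2910 for cTECs, and 4213 to 11503 for mTECs. The mouse probes that passed the background flag numbered 169 to 229 for CD45+ cells, 98 and 122 for cTECs, and 236 to 325 for mTECs. Scaled signals are relative to each array's 75th percentile, taken over 65 mouse probes that passed the background flag on 8 of 8 arrays. On the scaled axis the dimmest probe well above background lay at 342 and 621.0 on the cTEC arrays but at 67.0 to 223 on the other 6, so a level that was measurable in mTECs could be below the measurable range in cTECs. A probe was spotted 5 times per array, and the spots of a member varied by a median of 6.46% (CV) over the 25 of 40 member and array combinations well above background.

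All members were bright on every mTEC array, dim on every CD45+ array, and in between on the cTEC arrays after scaling. miR-200c, from the cluster on chromosome 6, had scaled signals of 8216, 8074 and 6606 on mTEC arrays, 1636 and 946 on cTEC arrays, and 149, 153 and 121 on CD45+ arrays. It was well above background on 7 of the 8 arrays, all but CD45+ replicate 3. miR-141, its neighbor in the cluster, had 5123, 3776 and 2419 on mTEC arrays, 609 and 374 on cTEC arrays, and 120.0, 97.9 and 119 on CD45+ arrays. For both miRNAs the 3 populations did not overlap, with mTECs highest and CD45+ cells lowest, but miR-141 was not well above background on cTEC replicate 2 and CD45+ replicate 3.

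Of the cluster on chromosome 4, miR-200a had scaled signals of 4590, 4038 and 3728 on mTEC arrays, 734 and 471 on cTEC arrays, and 72.2, 70.2 and 95.4 on CD45+ arrays. miR-200b had 5221, 5198 and 4237 on mTEC arrays, 1066 and 757 on cTEC arrays, and 112, 78.3 and 99.9 on CD45+ arrays. These 2 members again showed the same order of populations without overlap, but neither was well above background on any CD45+ array, nor miR-200a on cTEC replicate 2. miR-429 had 2321, 2256 and 1874 on mTEC arrays, 312 and 407 on cTEC arrays, and 63.4, 55.1 and 40.4 on CD45+ arrays. The scaled signals of miR-429 did not overlap either, but its cTEC and CD45+ values all lay below what each array could measure, so their order rests on signals not well above background.

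**Figure D1:**
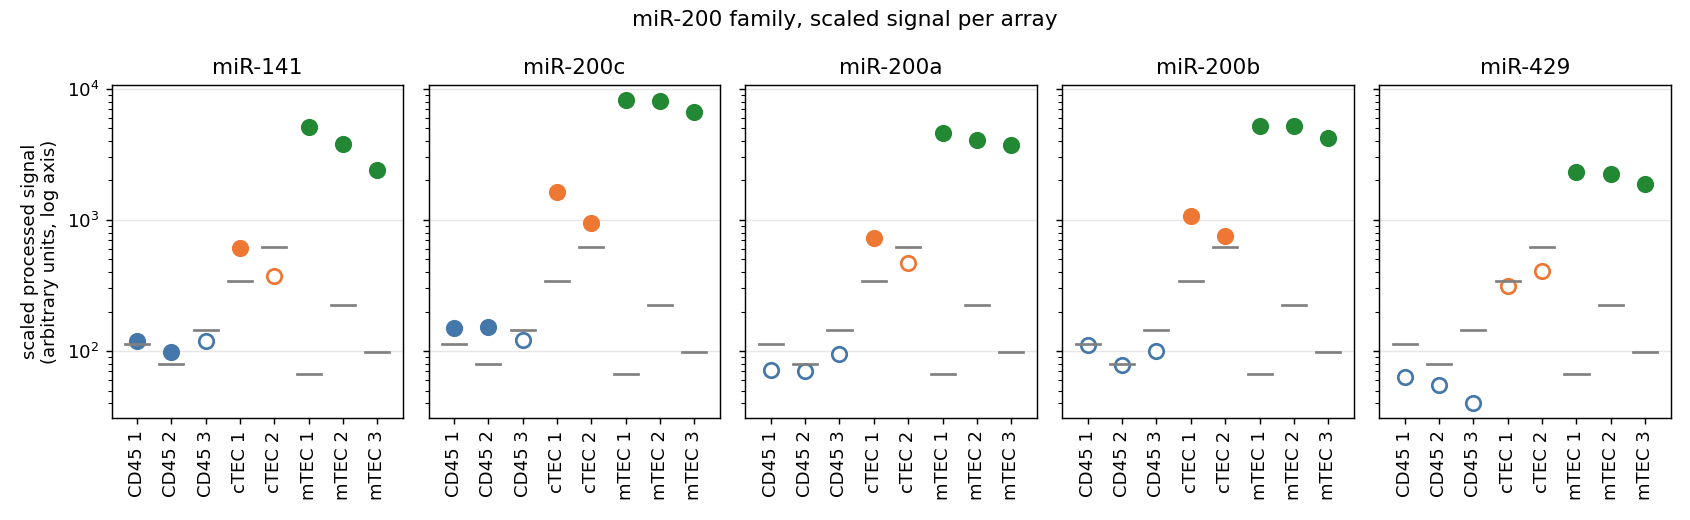
Scaled processed signal (arbitrary units, log axis) of each miR-200 family member on each of the 8 arrays (3 CD45+, 2 cTEC, 3 mTEC); filled circles were well above background, open circles were not, and gray bars give the dimmest mouse probe well above background on that array. The mTEC arrays lie at 1874 or above for every member, and the cTEC arrays lie between 312 and 1636.

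Before scaling, the separation of mTECs remained and that of cTECs did not. The unscaled processed signal of miR-200c was 16363, 5890 and 7330 on mTEC arrays, 824 and 223 on cTEC arrays, and 272, 302 and 174 on CD45+ arrays. That of miR-141 was 10202, 2755 and 2684 on mTEC arrays, 307 and 88.4 on cTEC arrays, and 220 (219.8), 193 and 172 on CD45+ arrays. For these and the other 3 members, cTEC replicate 1 lay above all CD45+ arrays, whereas cTEC replicate 2 lay within the CD45+ range or, for miR-141 and miR-200a, below it. Thus 5 of 5 members had every mTEC array above every CD45+ and cTEC array on both scales, but 5 of 5 on the scaled and 0 of 5 on the unscaled axis had every cTEC array above every CD45+ array. On the scaled axis, every mTEC array lay above every CD45+ array for 123 of the 309 tested miRNAs (39.8%), and above every cTEC array for 90 (29.1%). Every cTEC array lay above every CD45+ array for 162 of 309 (52.4%), so this step of the family's order was also that of most tested miRNAs. On the unscaled axis, the shares of the 309 miRNAs were 23.9% for mTECs above CD45+ cells, 65.0% for mTECs above cTECs and 7.44% for cTECs above CD45+ cells.

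**Figure D2:**
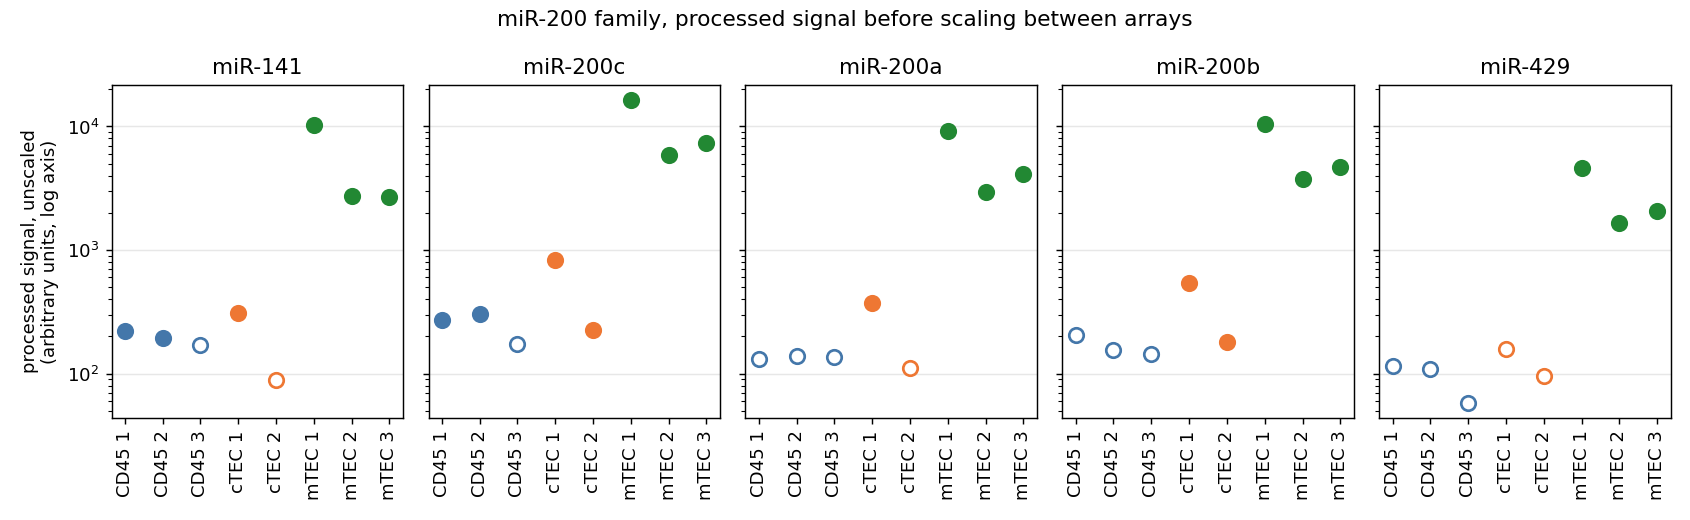
Processed signal before scaling (arbitrary units, log axis) of each member on the same 8 arrays, with filled circles for signals well above background and open circles for the rest. The mTEC arrays stay at 1646 or above for every member, while cTEC replicate 2 lies at 88.4 to 223, within or below the CD45+ range.

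The comparison of mTECs with CD45+ cells asks which miRNAs mark the medullary epithelium against the blood-lineage cells around it. All 5 members were higher in mTECs by limma, with Benjamini-Hochberg adjusted p under 0.05 over the 309 miRNAs, where 9.06% of tested miRNAs were called higher. The fitted log2 fold changes were 3.61 ± 0.21 (SE) for miR-200c (adjusted p = 4.01e-05), 2.97 ± 0.14 for miR-200b (adjusted p = 2.22e-05) and 2.72 ± 0.10 for miR-200a (adjusted p = 1.10e-05). They were 2.53 ± 0.26 for miR-141 (adjusted p = 0.000576) and 1.78 ± 0.081 for miR-429 (adjusted p = 1.80e-05). The median over the members was 2.72, against 0 over all 309 miRNAs, 83 of which lay at the floor on every array.

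These fitted values understate the differences, because signals under 621.0 (9.28 on the log2 scale) were set to that floor and all 15 CD45+ values of the family were under it. The CD45+ arrays thus had no spread, so the members' SEs and p-values rest on the other arrays, and for miR-429 on the mTEC arrays alone. With a floor of 129 the SEs were larger, at 0.19 (miR-429) to 0.32 (miR-141). Each member's adjusted p was then lower, at 5.91e-06 or less (limma). Against the dimmest measurable signal of each CD45+ array instead, mTECs were at least 51.1-fold higher for miR-200c, 44.3-fold for miR-200b and 37.4-fold for miR-200a. The corresponding bounds were at least 30.2-fold for miR-141 and 19.5-fold for miR-429. All these bounds hold on the scaled axis only. Before scaling, mean signals in mTECs and CD45+ cells were 9861 and 249.5 for miR-200c, and 2783 and 94.3 for miR-429. For miR-200c and miR-141, 2 of the 3 CD45+ arrays did measure the miRNA, with group means of 141 ± 17.4 and 112 ± 12.5 (SD, n = 3) against 7632 ± 891 and 3773 ± 1352 in mTECs.

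Between mTECs and cTECs the family was higher in the medullary cells. All 5 members passed the threshold by limma, with 16.2% of the 309 miRNAs called higher in this direction. The log2 fold changes of miR-200c, miR-200a, miR-141 and miR-200b lay close together at 2.61, 2.58, 2.51 and 2.44, with adjusted p from 4.35e-05 to 0.00161, and that of miR-429 was 1.78 (adjusted p = 5.37e-05). Both miR-200c and miR-200b passed the background flag on all 5 arrays, and the geometric means of miR-200b and miR-200c were 5.41- and 6.11-fold higher in mTECs. Their size depended on the scaling: on the log2 scale the differences were 4.07 and 4.37 without normalization, and 2.19 and 1.81 with quantile normalization. For the other 3 only bounds on the scaled axis can be given, at least 6.08-fold for miR-200a, 5.86-fold for miR-141 and 4.64-fold for miR-429.

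As a share of each member's own mTEC mean, the cTEC signals well above background were 21.8% and 15.5% on replicates 1 and 2 for miR-200b, and 21.4% and 12.4% for miR-200c. On cTEC replicate 1 they were 17.8% for miR-200a and 16.2% for miR-141, which were not well above background on replicate 2. miR-429 was so on neither cTEC array and has no measured share. These shares rest on the same scaling. By cluster, the measured shares on replicate 1 overlapped. By seed, miR-141 and miR-200a lay below miR-200b and miR-200c on this 1 array, a difference that was not tested.

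The comparison of cTECs with CD45+ cells gave a call for miR-200c only. Its log2 fold change was 1.00 ± 0.23 (limma, adjusted p = 0.0191), in a comparison where 10.7% of the 309 miRNAs were called higher. miR-200b reached 0.52 (95% interval 0.13 to 0.92, adjusted p = 0.0576) and miR-200a 0.15 (-0.13 to 0.42, adjusted p = 0.445). With the row of the array on the slide as a block in the limma fit, miR-200b was called as well, at 0.56 (adjusted p = 0.0388). miR-141 and miR-429 lay at or next to the floor in both groups, with 0.024 (-0.69 to 0.74) and 0 (-0.22 to 0.22). The width of these 2 intervals comes mainly from the spread among the mTEC arrays, so they do not bound the difference. Before the floor, mean scaled signals in cTECs and CD45+ cells were 492 and 112 for miR-141, and 360 and 52.9 for miR-429. The bounds without the floor put cTECs at least 8.37-fold higher for miR-200c and 8.19-fold for miR-200b, both well above background on the 2 cTEC arrays. These bounds hold on the scaled axis only: the mean unscaled signals of cTECs and CD45+ cells were 524 and 249.5 for miR-200c, and 358 and 168 for miR-200b, with cTEC replicate 2 inside the CD45+ range.

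The calls in this comparison changed with the arrays included and with the processing. For miR-200c, leaving out any of the 3 CD45+ arrays gave adjusted p of 0.0569 to 0.0595 (limma). Its fold change stayed at 1.00 and could not move, because all 3 CD45+ values lay at the floor. Only the number of arrays behind the fit changed. Leaving out a cTEC array leaves 1 array in that group. The spread then comes from the other groups alone, so only fold changes are given. Without cTEC replicate 2, miR-200b had 0.77 and miR-200c had 1.39. Without cTEC replicate 1, miR-200b had 0.28 and miR-200c had 0.60. With floors of 129 or 67.0 in place of 621.0 all 5 members, miR-200c among them as at 621.0, were called higher in cTECs, and without scaling between arrays none was, with adjusted p of 0.520 for miR-200c. The calls over all 309 miRNAs moved as well, from 95 in either direction to 200 and 224 with those floors.

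**Figure D3:**
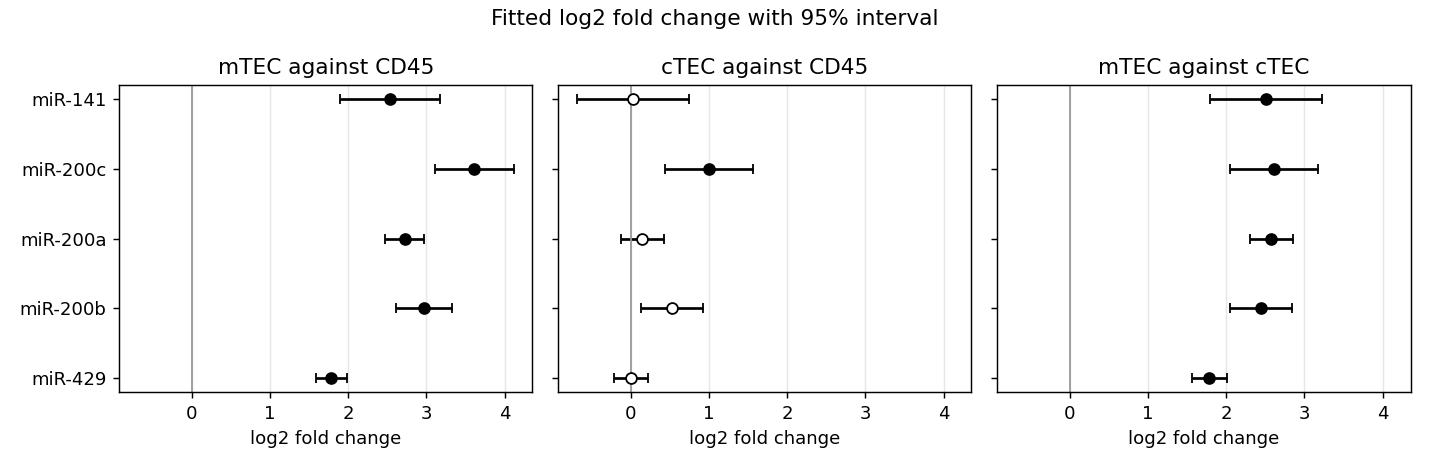
Log2 fold change of each member with its 95% interval from the limma fit, for mTECs against CD45+ cells, cTECs against CD45+ cells and mTECs against cTECs; filled circles have an adjusted p under 0.05. Every member is called in the first and last comparison, at 1.78 to 3.61 and 1.78 to 2.61, and miR-200c at 1.00 is the only call in the middle. The floor left the CD45+ arrays without spread, so the intervals rest on the cTEC and mTEC arrays, and for miR-429 on the mTEC arrays alone.

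With both epithelial populations weighted equally, the family was higher than in CD45+ cells, by 0.89 (miR-429) to 2.31 (miR-200c) on the log2 scale. All 5 members passed the threshold by limma, with adjusted p from 6.48e-05 to 0.00628, where 12.3% of the 309 miRNAs were called higher. With both populations fitted as 1 group, 0 of 5 passed by limma (adjusted p from 0.0995 to 0.337), although the fold changes were larger, at 1.07 to 2.57. An exact permutation test of scaled signals, which needs no floor, gave p = 0.0357 for each member (two-sided, 5 epithelial against 3 CD45+ arrays), the smallest that 56 groupings allow. In each member 5 of 5 epithelial arrays exceeded all CD45+ arrays, as was so for 32.0% of the 309 miRNAs. Without scaling 4 of 5 did, and the exact p was 0.0714 to 0.179. This comparison shares its arrays with the pairwise ones and is no independent test.

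Among the mTEC replicates, miR-141 varied more than the other members. Its highest mTEC array was 2.12 times its lowest, whereas this ratio was 1.23 to 1.24 for the other 4. The CV was 35.8% for miR-141 and 10.6% to 11.7% for the rest, including miR-200c of the same cluster and miR-200a of the same seed. With 3 arrays in a group, this difference in spread was described and not tested.

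Across the 8 arrays the members' log2 values, with the floor applied, had Pearson correlations from 0.953 (miR-141 and miR-200c) to 0.996 (miR-200a and miR-429). The lowest value joined 2 members of the same cluster and the highest 2 members of another. In all members the 3 CD45+ arrays sat at the floor, so these values over 8 arrays mostly restate the step between mTECs and the rest.

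The opposite strand of each hairpin was on the array too. In the miR-141 hairpin (RefSeq, GRCm38.p6, chr6:124717914-124717985, minus strand), which is shown because it gave the only opposite strand above background, capitals mark mature miR-141.
miR-141 hairpin: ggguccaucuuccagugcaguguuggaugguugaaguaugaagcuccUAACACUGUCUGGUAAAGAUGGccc
miR-141*: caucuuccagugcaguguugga
miR-141* had scaled signals of 105.7, 115 and 110.3 on the mTEC arrays, of which only replicate 1 was well above background. It was below 0 on the 3 CD45+ arrays and on cTEC replicate 1, and 77.7 on cTEC replicate 2, not well above background. The opposite strands of miR-200c, miR-429, miR-200a and miR-200b were well above background on 0 of 8 arrays.

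Outside the family, the 5 of 221 candidate miRNAs with the highest correlation to the mean of the members over the 8 arrays were miR-145 (Pearson r = 0.990), miR-375 (0.990), miR-185 (0.987), miR-203 (0.983) and miR-194 (0.982). miR-375, known from endocrine and mucosal epithelium, had 1816, 1852 and 1745 on mTEC arrays, 278 and 340 (339.6) on cTEC arrays and 2.65 to 39.1 on CD45+ arrays. miR-203, an epidermal miRNA, had 3631, 3840 and 4356 on mTEC arrays, 405 and 489 on cTEC arrays and 76.6 to 99.1 on CD45+ arrays. In both, as in the family, mTEC arrays were far above the rest. For miR-185 and miR-194, the 2 cTEC arrays did not both lie above the CD45+ arrays before the floor. For miR-185, the signals before the floor were 1023 to 1199 in mTECs, 214 and 271 in cTECs, and 464 to 531 in CD45+ cells. miR-194 had 1035 to 1124 in mTECs, 149 and 178 in cTECs, and 149 to 168 in CD45+ cells. The cTEC values of both lay under the dimmest measurable signals of those arrays, 342 and 621.0. Their order against CD45+ cells was therefore not measured. miR-145 is also known from mesenchymal cells.

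A list of 9 other miRNAs of epithelial tissues had 5 members called higher in mTECs than in CD45+ cells, and 5 called higher in mTECs than in cTECs, where 9.06% and 16.2% of the 309 miRNAs were called higher. The 5 against CD45+ cells were miR-205 (log2 fold change 4.22), miR-203 (2.66), miR-375 (1.54), miR-182 (1.15) and miR-194 (0.80). Of these, miR-203, miR-375 and miR-182 were well above background on the 3 mTEC arrays only. They were thus tested only through the group in which they were high, as were miR-183, miR-96 and miR-192. The other 4, miR-31, miR-183, miR-96 and miR-192, had values from -0.061 to 0.20 and did not pass. These values are held near 0 by the floor: before it, mean scaled signals in mTECs and CD45+ cells were 685 and 54.1 for miR-183, 621.0 and 55.5 for miR-96, and 465 and 62.8 for miR-192, each well above background on the 3 mTEC arrays and on no CD45+ array. miR-31 had the opposite order of means, 234 in mTECs, 227 in cTECs and 618 in CD45+ cells, where it was well above background on 3 of 3 arrays. In cTECs against CD45+ cells, 0 of the 9 passed at adjusted p under 0.05 by limma, where 10.7% of the 309 miRNAs were called higher and 20.1% lower. Of the 9, 1 had an unadjusted p under 0.05, and miR-205 had the highest value, 1.64 (adjusted p = 0.0741). Only miR-205 of these 9 was well above background on both cTEC arrays, as were miR-200b and miR-200c of the family.

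Summed over its 5 members, the scaled signal of the family was 18865 to 25470 on mTEC arrays, 2956 and 4358 on cTEC arrays, and 454 to 516 on CD45+ arrays. The sum of the 9 other epithelial miRNAs was 19671 to 24265, 3577 and 5354, and 1179 to 1230. On the scaled axis the 2 sums thus ordered the populations alike and without overlap. The cTEC sums include signals not well above background, and 52.4% of the 309 miRNAs had every cTEC array above every CD45+ array on this axis. Before scaling, cTEC replicate 2 lay within or below the CD45+ range for each family member, and unscaled sums were not computed. Within mTECs the family's sum was highest on replicate 1 and the other epithelial sum on replicate 3.

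Markers of other cell types moved with these comparisons. The sum of 7 blood-cell miRNAs was 26834 to 31039 on CD45+ arrays, 4700 (4699.96) and 5998 on cTEC arrays and 3508 to 4852 on mTEC arrays, and 6 of 7 were called lower in mTECs and 7 of 7 in cTECs, where 14.9% and 20.1% of the 309 miRNAs were called lower. The sum of 5 mesenchymal miRNAs was 189 to 301 on CD45+ arrays, 2232 and 5117 on cTEC arrays and 6294 to 6660 on mTEC arrays. Of these 5, miR-143 and miR-145 were called higher than in CD45+ cells in both epithelial groups. Their log2 fold changes were 2.37 and 2.22 in mTECs, and 1.75 and 0.42 in cTECs (limma, adjusted p = 0.0353 and 0.0449). Of the 309 miRNAs, 9.06% were called higher in mTECs and 10.7% in cTECs. miR-199a-3p and miR-199a-5p were well above background on no array and miR-214 on 2 mTEC arrays.

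The endothelial pair miR-126-3p and miR-126-5p summed to 212 to 295 on CD45+ arrays, 1527 and 2755 on cTEC arrays and 497 to 550.1 on mTEC arrays. By limma, miR-126-3p was higher in cTECs than in CD45+ cells by 1.38 (adjusted p = 0.0335) and lower in mTECs than in cTECs by 1.38 (adjusted p = 0.0421). These values are equal because the floor was applied to both CD45+ cells and mTECs. Before it, the mean scaled signals were 232 in CD45+ cells, 401 in mTECs and 1814 in cTECs. Like the endothelial sum, the sums of the family and of the other 3 lists were higher on cTEC replicate 1 than on replicate 2. The arrays measured miRNAs only, so the sort markers could not be checked, and the part of other cell types in the values of the family was not tested.

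**Figure D4:**
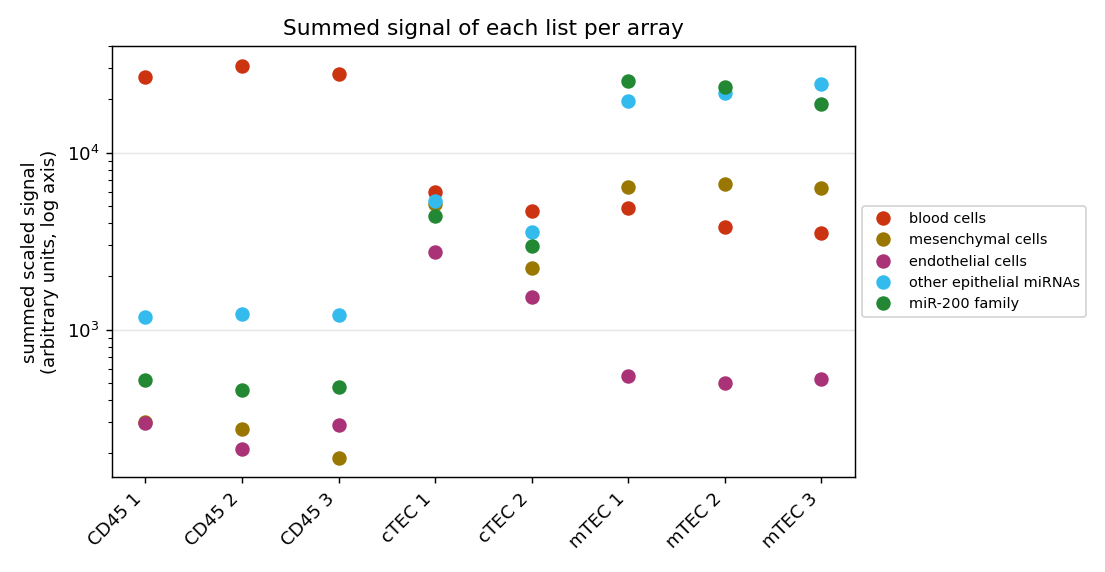
Summed scaled signal (arbitrary units, log axis) of the miR-200 family, 9 other epithelial, 7 blood-cell, 5 mesenchymal and 2 endothelial miRNAs on each array. The family's sum runs from 454 to 516 on CD45+ arrays to 18865 to 25470 on mTEC arrays, and the endothelial sum is highest on the 2 cTEC arrays.

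The direction in mTECs did not turn on the processing. Over 15 other settings, each member was called higher in mTECs than in CD45+ cells and than in cTECs. With an array left out, this held against CD45+ cells for each of the 8 arrays, and against cTECs for each CD45+ or mTEC array. Without a cTEC array, which leaves 1 in that group, the members' log2 fold changes against cTECs were 1.78 to 3.01. Leaving out a CD45+ array could not change the members' fold changes, since all their CD45+ values lay at the floor. Under the other settings the size did move: for miR-200c against CD45+ cells the log2 fold change ran from 1.98 in the authors' deposited values, which carry no background subtraction, to 5.77 with the lowest floor. In those deposited log2 values miR-200c stood at 13.5, 13.5 and 13.1 on mTEC arrays, 12.4 and 11.4 on cTEC arrays, and 11.4, 11.4 and 11.3 on CD45+ arrays, where the mTEC arrays were again apart.

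**Figure D5:**
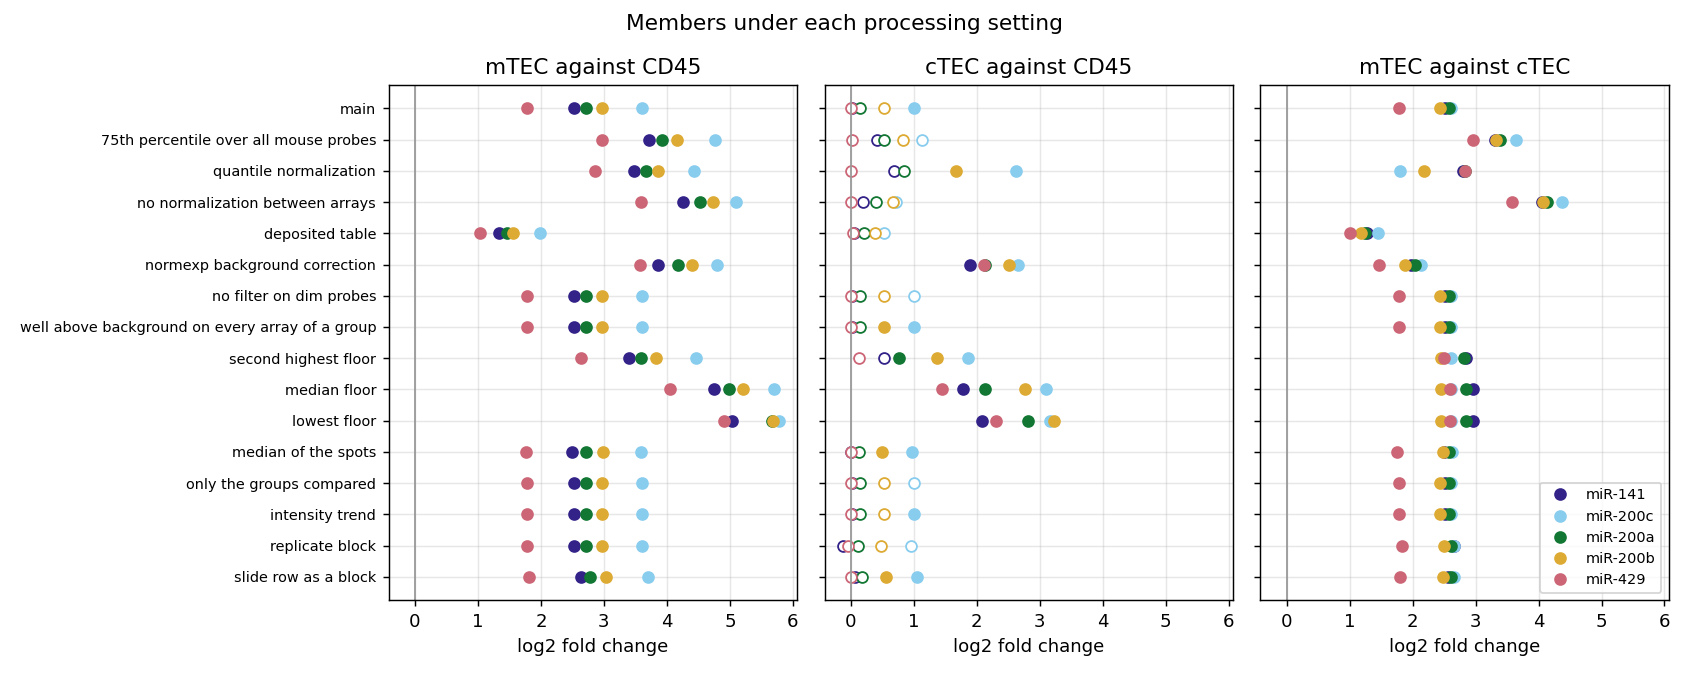
Log2 fold change of each member under the setting used here (top line) and 15 others, for the 3 pairwise comparisons; filled circles have an adjusted p under 0.05. In the comparisons of mTECs all circles are filled, and in that of cTECs with CD45+ cells the values run from -0.12 to 3.23 and the calls change with the setting.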

How the data were processed

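Total RNA of 8 sorted samples was hybridized with Cy3 label to 8 arrays of 1 slide, and the authors deposited every array's scanner file together with a table of mouse probes. Per the file headers, the spot intensity was extracted with Feature Extraction 10.7.3.1, which subtracted background within each array, whereas the paper's methods name another version. The authors' table holds log2 intensity after quantile normalization between arrays. In each array its order of probes was that of the median spot signal before any background was subtracted (lowest rank correlation 1). Its columns of the authors' own comparisons (log2 fold changes, fold changes, adjusted p-values, FDR and log odds) were not used. limma appears without a version in the submitters' processing notes.

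Values were computed from the processed signal in R 4.3.3 with limma 3.58.1. Control and outlier spots (1.09% to 1.85% per array) were left out, and no spot was saturated. Signals were divided by the array's 75th percentile, taken over the 65 mouse probes that were above background by the scanner's flag on every array, multiplied by the geometric mean of those percentiles, floored at 621.0, the highest of the arrays' lowest signals well above background, and averaged over spots on the log2 scale. Since 14.2% to 29.8% of mouse spots were at or below 0, a floor was needed for the log scale. A linear model with 3 group means and no covariate was fitted to the 309 miRNAs that passed that flag on 2 or more arrays (5 residual and 0.898 prior degrees of freedom), with moderated tests and Benjamini-Hochberg adjustment over all 309. Lower bounds compared a group mean with each dim array's lowest signal well above background, or the probe's own where higher. On data simulated for mTEC against CD45+ cells, 59 of 60 miRNAs changed by 2 on the log2 scale were recovered. In this simulation 0 of 249 others were called, and 0 with no change. These counts describe the simulated data only. In the real data the members' CD45+ values lay at the floor without spread, and deviations of arrays in the same slide row correlated. Whether the counts carry over to the tests of the members was not tested.

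Samples were grouped by their titles. The number of arrays, not a read depth, limits the precision. The labels call the samples biological replicates. Named miRNAs were the 5 members, their opposite strands, the 5 tested miRNAs most alike by Pearson correlation to the mean of the members, 9 other epithelial miRNAs, and lists for blood, mesenchymal and endothelial cells. The members, lists and floor were chosen with earlier results of these data known. Other normalizations, background corrections, filters, floors, spot summaries, sample sets and blocks were tried, and each array was left out in turn. Sequences were matched by name in RefSeq tables (GRCm38.p6) for 5 of 5 members. Probes without a row in the mouse table were not analyzed here.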

Additional observations from a re-analysis of the deposited data

Results flagged for a closer look

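The opposite strand miR-141*, which entered no comparison, had a scaled signal of 105.7 on mTEC replicate 1 and was well above background there. On the 3 CD45+ arrays its signal was below 0, and on mTEC replicates 2 and 3 it was 115 and 110.3 but not well above background.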

How the results depend on the processing

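All 5 members were called higher in mTECs than in CD45+ cells and than in cTECs under 15 alternatives. With an array left out, this held against CD45+ cells for each of the 8 arrays, and against cTECs for each CD45+ or mTEC array. Without a cTEC array, which leaves 1 in that group, the members' log2 fold changes against cTECs were 1.78 to 3.01. In cTECs against CD45+ cells, where 1 member was called, the number was 0 with the 75th percentile taken over all mouse probes, without normalization, in the deposited table, without the filter on dim probes and with only the groups compared, 2 with quantile normalization, the filter per group, the median of the spots and the row of the slide as a block, 3 with a floor of 342, and 5 with floors of 129 and 67.0 and with normexp. The number was 0 without CD45+ replicate 1, 2 or 3, and 1 without mTEC replicate 1, 2 or 3. Without a CD45+ array the members' fold changes could not move in any comparison, since their CD45+ values all lay at the floor. Leaving out a cTEC array leaves 1 array in that group, so no number is given for it. Averaging both epithelial populations, 5 members were called in 14 of 15 alternatives and 0 with both fitted as 1 group (limma, adjusted p from 0.0995 to 0.337, with fold changes of 1.07 to 2.57 on the log2 scale against 0.89 to 2.31). The exact test passed for 0 members without scaling and for 2 with the percentile over all probes, against 5. A filter for signals above background on all arrays left no member to test.

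Replicate numbers did not pair the samples: deviations of same-numbered arrays correlated from -0.217 to 0.278 and of others from -0.341 to 0.276. By row of the slide, arrays of different groups correlated from 0.052 to 0.278 within a row and from -0.341 to -0.0061 between rows. With that row as a block, miR-200b was called beside miR-200c in cTECs against CD45+ cells (limma, adjusted p = 0.0388). With the replicate number as a block, 5 members were called in each mTEC comparison and in the average of both, 0 in cTECs against CD45+ cells (miR-200c adjusted p = 0.0547), and miR-141 there turned from 0.024 to -0.12.

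Counts over all tested miRNAs moved by over 1.5 times. For mTECs against CD45+ cells, 74 became 31 (above background on all arrays), 115 and 140 (floors of 129 and 67.0), 118 (normexp) and 121 (deposited table). For cTECs against CD45+ cells, 95 became 53, 200, 224 and 250 under the first 4 of these. For mTECs against cTECs, 70 became 38, 130, 129 and 201, and 39 with the percentile over all probes. For the average of both, 100 became 47, 181, 211 and 228, and 49 as 1 group. Counts without a cTEC array, which rest on 1 array in that group, are left out.

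Scaling also moved the balance of calls. In cTECs against CD45+ cells 33 were higher and 62 lower, but 6 and 114 with the percentile over all probes, 2 and 111 without normalization, 26 and 112 in the deposited table, and 197 and 53 with normexp, which shifted the median of all miRNAs by 1.38. In mTECs against cTECs, 50 and 20 became 38 and 1, 73 and 0 without normalization, 37 and 45 with quantile normalization, and 45 and 156 with normexp, with median shifts of 0.41 without normalization and -0.97 with normexp. In mTECs against CD45+ cells, 28 and 46 became 18 and 92 with the percentile over all probes and 67 and 51 with normexp. The cause of these shifts was not tested. Signals of cTEC arrays under 342 and 621.0 could not be measured, which limits every statement on the family in cTECs.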
